A study of Mus musculus with 6 samples.

Results

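The genes of cholesterol synthesis and sterol regulation were followed in whole retina of Atrx conditional knockout mice (Atrx is a chromatin remodeller) and of their wildtype littermates. Members were taken by symbol from a list of 26 genes, as the probe sets annotated with exactly 1 of these symbols. This gave 24 genes on 25 probe sets, out of 22180 genes with such a probe set on the array. Idi1, the isomerase that follows Mvd, shares its probe set with another symbol and is left out by this rule. Acat2, an enzyme of acetyl-CoA condensation, had no probe set under that single symbol and is not analysed here.

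The 3 knockout samples were of genotype Chx10Cre+/-;Atrx flox/y and the 3 wildtype samples of genotype Chx10Cre-/-;Atrx flox/y. All were males at postnatal day 17, when by the series' design text the loss of amacrine and horizontal cells is at its height. Both groups carried the floxed allele and all knockout animals, but no control, carried the Cre transgene, so loss of Atrx and presence of Cre cannot be told apart here. Cre was driven by Chx10, a gene of retinal progenitors and bipolar cells, and a sample held both retinas of a mouse, pooled. One Affymetrix gene array was run per sample.

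Cholesterol is built from acetyl-CoA through mevalonate, farnesyl diphosphate, squalene and lanosterol. Its supply is set by a feedback loop at the endoplasmic reticulum: when sterols are scarce the escort protein SCAP carries the SREBP transcription factors to the Golgi, where they are cut and released to switch on the genes of the pathway, and when sterols are plentiful the INSIG proteins hold SCAP and SREBP back. Excess sterol is sensed by the LXR nuclear receptors, which raise efflux transporters and Srebf1. The retina makes cholesterol itself and also takes it up from the blood through the pigment epithelium.

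Expression is given as log2 values per probe set, made with RMA (background correction, quantile normalization, probe summary). A gene was tested if its value was at least 5 on at least 3 arrays, which all 24 genes passed, and was called at an adjusted p under 0.05 (limma with Benjamini-Hochberg adjustment over 15619 genes). Log2 changes are knockout minus wildtype, with limma's standard error (SE). Pairs of arrays had a Pearson's r of 0.975 to 0.993 over these genes. Atrx was at 8.42, 8.72 and 8.33 in knockout retinas, against 9.04, 8.86 and 9.17 in wildtype retinas (log2 change -0.53, SE 0.12, adjusted p = 0.115), so it was lower on every knockout array but not called. Lens genes (12 of them, by their mean) were at 10.10 on knockout 2 and 5.69 and 6.15 on the other two knockout arrays, against 11.40 on wildtype 1 and 5.72 and 5.85 on the other two wildtype arrays. For sterol genes with a log2 change of at least 0.05 in size, the change without these 2 lens-rich arrays is given where it differed by over 1.5 times.

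No cholesterol gene was called between the genotypes (0 of 24; over all genes limma called 0.826%). The transcription factors Srebf1 and Srebf2, the feedback gene Insig1, the efflux transporter Abcg1 and the late enzymes Hsd17b7 and Nsdhl were lower on every knockout array than on any wildtype array, with group means 0.14 to 0.32 apart on the log2 scale. One enzyme, Ebp, lay above the wildtype range on every knockout array. Groups that did not overlap were thus seen in 7 of 24 genes (29.2%), against 20.3% of all genes tested. The genes around the pathway, counted below, had a like share, 21 of 75 (28.0%). At an unadjusted p under 0.05 there were 6 of 24 (25.0%), all lower in knockout, against 13.5% of all genes in either direction and 6.5% lower in knockout. That count was 3 of 24 without wildtype 1 (9.4% of all genes), without wildtype 2 (8.6%) or with a replicate block (10.2%). Without the 2 lens-rich arrays it was 4 (12.8%), and these counts are near the share over all genes. The count was 8 of 24 with a second quantile normalization (14.9% of all genes), with array weights (15.0%) or without knockout 2 (16.4%). With a log2 floor of 6 (16.7%) or an intensity trend and robust spread (14.8%) it was 7. The members share a pathway and the same 6 arrays, so these shares are descriptions and were not tested. Of the 24 genes 16 had a log2 change below 0, against 49.1% of all genes. This split depends on the scaling, with 21 below 0 after a second quantile normalization (where the median of all genes was -0.015) and 19 with arrays centred on their medians. The median log2 change was -0.05, against 0.003 over all genes.

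Srebf2 encodes SREBP2, the main activator of the cholesterol genes. It was at 8.78, 9.00 and 8.82 in knockout retinas, against 9.17, 9.27 and 9.11 in wildtype retinas. The groups lay 0.11 apart at their nearest values, about the size of the spread within the knockout group (8.87 ± 0.12 in knockout, 9.18 ± 0.08 in wildtype, SD, n = 3 each). The log2 change of -0.32 (SE 0.089) is a difference of -19.8% with an adjusted p of 0.175, the smallest of the 24. Its 95% interval ran from 0.696 to 0.923 as a fold. The adjusted p ran from 0.0772 with an intensity trend and robust spread to 0.517 without wildtype 2, and the call was made under none of the 17 alternatives.

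Srebf1 encodes SREBP1, which favours genes of fatty acid synthesis and is itself a target of LXR. It was at 7.37, 7.25 and 7.46 in knockout retinas, against 7.74, 7.69 and 7.57 in wildtype retinas. The highest knockout array and the lowest wildtype array were 0.11 apart. The log2 change was -0.30 (SE 0.087, adjusted p = 0.187), a difference of -19.0%. With 3 arrays in each group the exact permutation p of Srebf1, Srebf2 and each of the other 5 genes without overlap was 0.1, the smallest that this design allows.

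The other regulators differed less. Insig1, the INSIG gene that SREBP itself induces, was at 9.58, 9.51 and 9.46 in knockout retinas, against 9.71, 9.80 and 9.66 in wildtype retinas (log2 change -0.20, SE 0.077, adjusted p = 0.308). Its groups did not overlap, although the gap between them was only 0.08. Insig2, the INSIG gene that does not depend on SREBP, was at 7.56, 7.76 and 7.47 in knockout retinas, against 7.51, 7.68 and 7.81 in wildtype retinas. The 2 groups of Insig2 overlapped over most of their range (log2 change -0.07, SE 0.11; -0.23 without the 2 lens-rich arrays). Scap was at 9.20, 9.21 and 9.28 in knockout retinas, against 9.25, 9.24 and 9.26 in wildtype retinas, the smallest difference among the 5 regulators (log2 change -0.02, 95% interval -0.18 to 0.14). A second, dimmer probe set of Scap had a log2 change of -0.04.

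Among the 3 genes of sterol transport, Abcg1, which moves cholesterol out of cells to high-density lipoprotein, was at 8.55, 8.48 and 8.45 in knockout retinas. In wildtype retinas Abcg1 was at 8.65, 8.77 and 8.71, above all knockout values (log2 change -0.22, SE 0.075, adjusted p = 0.263). Abca1, the transporter that loads cholesterol onto apolipoproteins, was at 7.05, 7.58 and 7.37 in knockout retinas, against 7.29, 7.66 and 7.45 in wildtype retinas. Its arrays spread more within a group than the groups differed (log2 change -0.13, SE 0.15), and without the 2 lens-rich arrays its change was -0.35 (unadjusted p of limma 0.0462, adjusted p = 0.381). Over the 17 alternatives its change ran from -0.35 to 0.01, the highest value being that without knockout 1. Stard4, a soluble carrier that moves sterol between membranes, was at 6.13, 6.35 and 6.18 in knockout retinas, against 6.50, 6.45 and 6.35 in wildtype retinas. Only the highest knockout array reached the lowest wildtype array (log2 change -0.21, SE 0.088, adjusted p = 0.349).

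**Figure D1:**
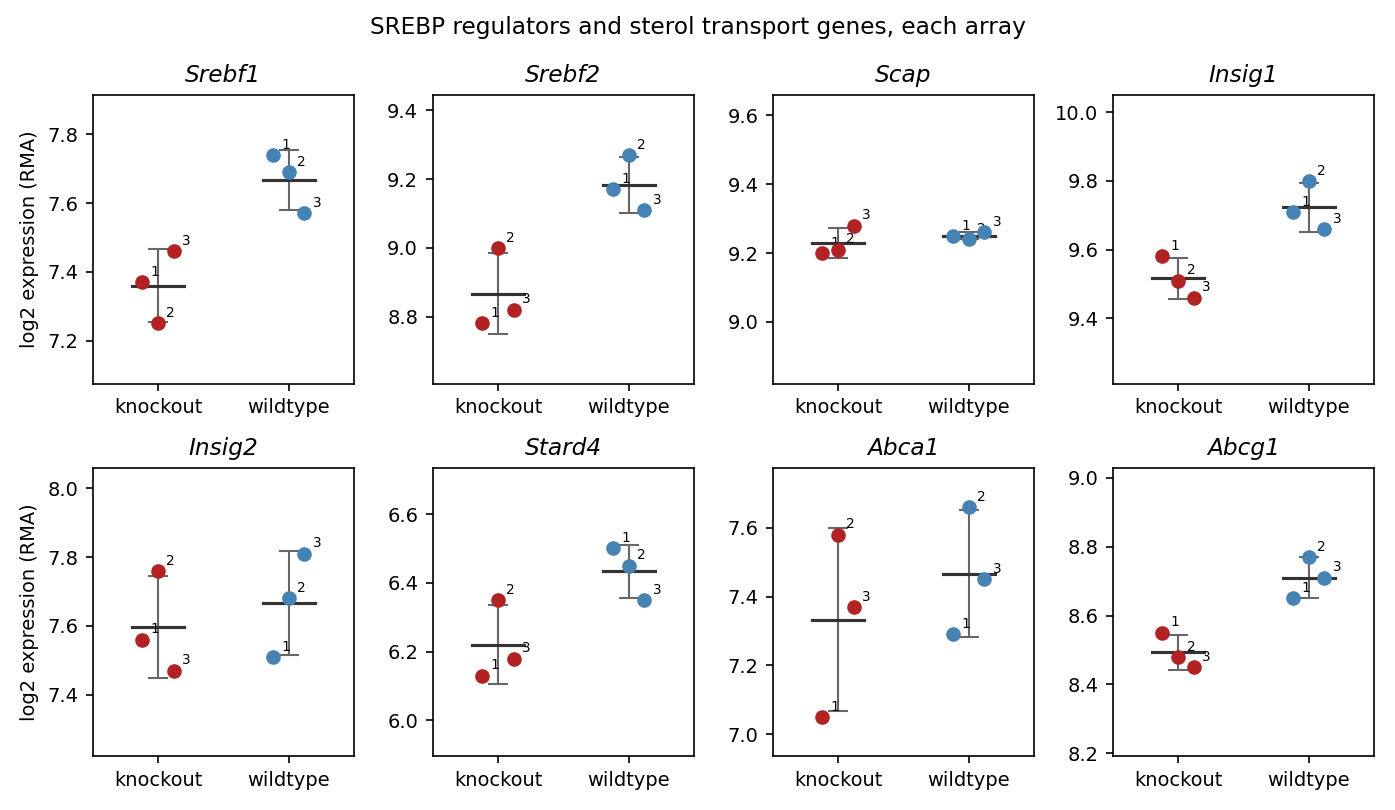
Log2 expression (RMA, y axis, each panel spanning the same width) of the 5 SREBP regulators and 3 sterol transport genes in knockout and wildtype retinas. Points are arrays with their replicate number, bars the mean and SD of 3 arrays. Srebf1, Srebf2, Insig1 and Abcg1 show no overlap between the groups, Stard4 touches, and Scap, Insig2 and Abca1 overlap.

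The enzymes from acetyl-CoA units to farnesyl diphosphate showed no separation: 3 of the 5 tested had a log2 change above 0, and no group stood apart. Hmgcs1, which makes HMG-CoA, was at 9.99, 9.93 and 9.78 in knockout retinas, against 10.00, 9.93 and 9.99 in wildtype retinas. Knockout 3 was the only low array, and the log2 change was -0.07 (SE 0.082, 95% interval -0.26 to 0.12). Without knockout 3 the change of Hmgcs1 was -0.011, and without knockout 1 it was -0.118. Mvk, mevalonate kinase, was at 7.23, 7.20 and 7.19 in knockout retinas, against 7.07, 7.22 and 7.27 in wildtype retinas (log2 change 0.02, SE 0.081). The knockout arrays of Mvk lay close together inside the wildtype range. Pmvk, which adds the next phosphate, was at 8.25, 8.19 and 8.30 in knockout retinas, against 8.11, 8.06 and 8.24 in wildtype retinas (log2 change 0.11, SE 0.081; 0.068 without wildtype 2). Mvd, the decarboxylase that follows, was at 7.11, 6.74 and 7.00 in knockout retinas, against 7.28, 7.12 and 7.04 in wildtype retinas. The low array of Mvd was knockout 2, and its log2 change of -0.19 (SE 0.11) was -0.02 without the 2 lens-rich arrays, -0.087 without knockout 2 alone and -0.125 without wildtype 1 alone. Fdps, farnesyl diphosphate synthase, was at 8.47, 7.97 and 8.00 in knockout retinas, against 8.06, 8.18 and 8.12 in wildtype retinas. Here knockout 1 lay above and the other two knockout arrays below all wildtype values, so the mean change of 0.02 (SE 0.13) joins arrays on opposite sides of wildtype.

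The 3 enzymes from squalene to lanosterol also showed overlapping groups. Sqle, squalene epoxidase and a rate-limiting step, was at 8.00, 8.24 and 8.04 in knockout retinas, against 8.33, 8.26 and 8.22 in wildtype retinas. Knockout 2 lay just inside the wildtype range and the log2 change was -0.17 (SE 0.088, adjusted p = 0.437). Fdft1, squalene synthase, was at 9.95, 9.80 and 9.71 in knockout retinas, against 9.78, 9.86 and 9.89 in wildtype retinas (log2 change -0.02, SE 0.087). Lss, which closes the sterol rings, was at 7.34, 7.40 and 7.22 in knockout retinas, against 7.45, 7.17 and 7.34 in wildtype retinas. Its knockout range lay wholly inside the wildtype range, with a log2 change of 0.002 (SE 0.095) and a 95% interval of 0.861 to 1.165 as a fold.

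The 8 late enzymes, which trim lanosterol to cholesterol, had estimates on both sides of 0, 4 above and 4 below. The groups did not overlap in 3 of them (37.5%, against 20.3% of all genes), 2 lower and 1 higher in knockout, and none was called. Hsd17b7, a keto-reductase of sterol demethylation, was at 6.40, 6.20 and 6.23 in knockout retinas, against 6.58, 6.48 and 6.52 in wildtype retinas. All knockout values were below all wildtype values, with a log2 change of -0.25 (SE 0.083, adjusted p = 0.249). Nsdhl, the decarboxylating dehydrogenase of the same demethylation complex, was at 8.58, 8.57 and 8.51 in knockout retinas, against 8.71, 8.70 and 8.68 in wildtype retinas. The gap of 0.10 was wider than the SD of either group (0.034 in knockout, 0.018 in wildtype), yet the log2 change was only -0.14 (SE 0.070, unadjusted p of limma 0.0703). Ebp, the sterol isomerase, was at 8.08, 7.83 and 7.84 in knockout retinas, against 7.76, 7.60 and 7.75 in wildtype retinas. It was the one gene above the wildtype range on all 3 knockout arrays (log2 change 0.21, SE 0.095, adjusted p = 0.385), and without knockout 1 the change was 0.13.

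The remaining late enzymes overlapped between the groups. Sc5d, the desaturase, was at 8.36, 8.39 and 8.15 in knockout retinas, against 8.11, 8.14 and 8.29 in wildtype retinas (log2 change 0.12, SE 0.094; 0.04 without the 2 lens-rich arrays, 0.076 without knockout 2 and 0.195 without knockout 3). Cyp51, the lanosterol demethylase, was at 7.66, 7.63 and 7.50 in knockout retinas, against 7.62, 7.53 and 7.63 in wildtype retinas (log2 change 0.004, SE 0.080). Both groups of Cyp51 had 1 array lower than the other two. Msmo1, the methylsterol oxidase, was at 7.78, 7.78 and 7.54 in knockout retinas, against 7.58, 7.72 and 7.82 in wildtype retinas (log2 change -0.004, SE 0.10). Tm7sf2, a sterol reductase, was at 7.01, 7.07 and 7.07 in knockout retinas, against 7.09, 7.13 and 6.99 in wildtype retinas (log2 change -0.02, SE 0.075). The 2 groups of Msmo1 overlapped over most of their range, and the knockout arrays of Tm7sf2 lay inside the wildtype range. Dhcr7, the reductase of the last step, was at 8.35, 8.36 and 8.31 in knockout retinas, against 8.35, 8.38 and 8.29 in wildtype retinas. Its 95% interval ran from 0.894 to 1.120 as a fold. RMA values of dim probe sets compress folds, so these bounds hold for the array signal.

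**Figure D2:**
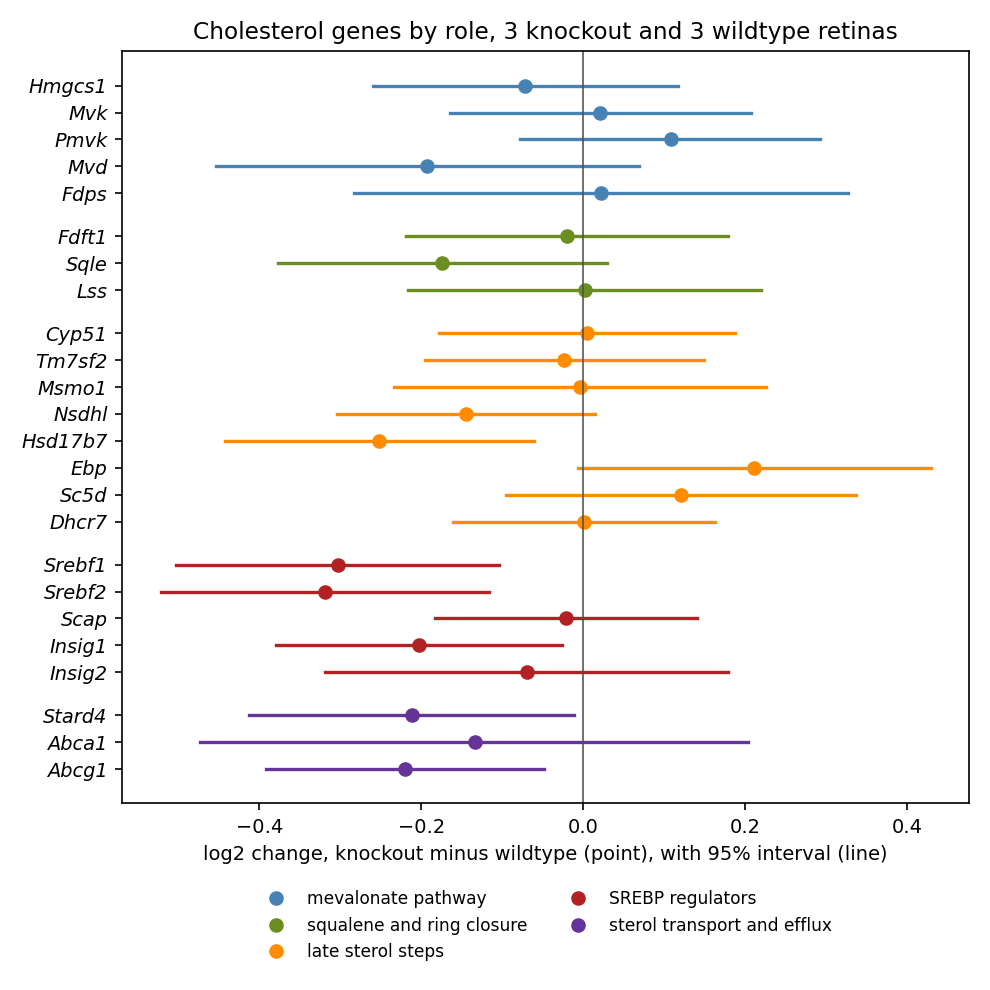
Log2 change of each of the 24 genes (x axis, knockout minus wildtype, point) with limma's 95% interval (line), grouped by role from top to bottom. All 5 regulators and all 3 transport genes have estimates below 0 (from -0.32 to -0.02), while the 16 enzymes lie on both sides of 0.

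**Figure D3:**
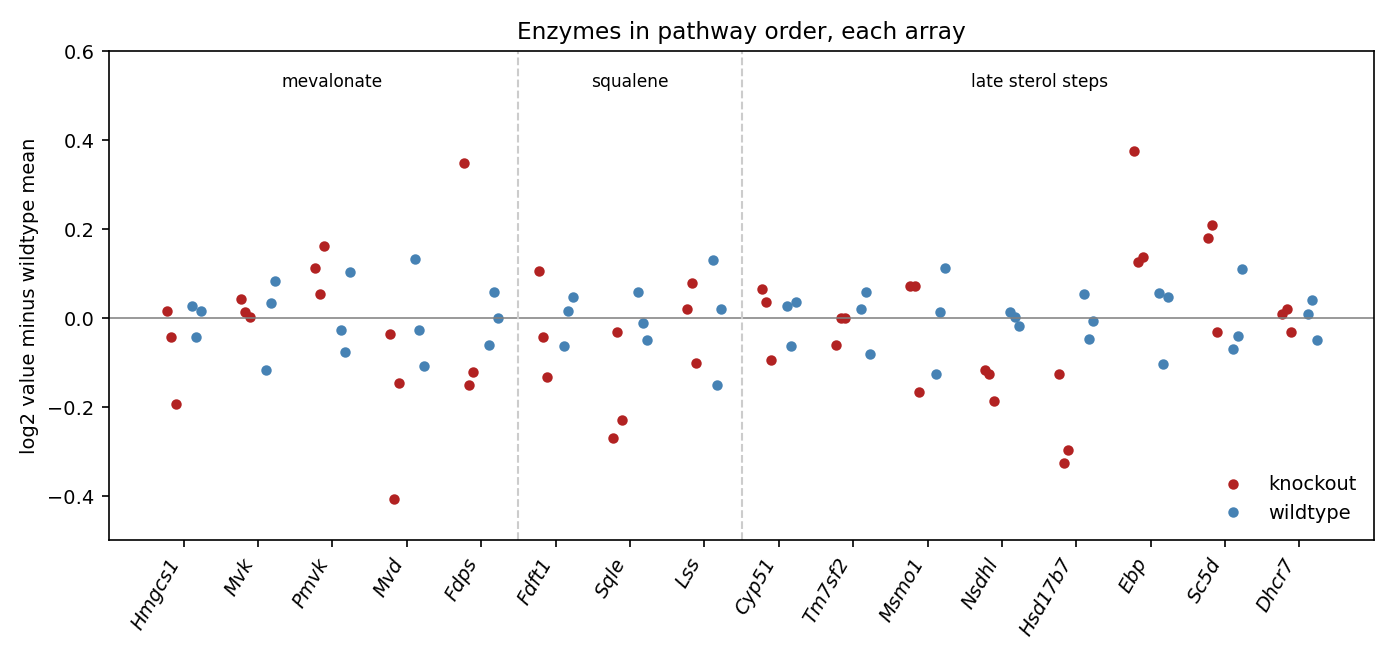
Log2 value of each array minus the gene's wildtype mean (y axis) for the 16 enzymes in pathway order (x axis), knockout arrays left of wildtype arrays. Hsd17b7 and Nsdhl have all knockout points below and Ebp all above the wildtype points; Fdps has knockout points on both sides.

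The position of single arrays within the set was set out as the mean deviation of a role's genes from their own mean over the 6 arrays. For the 5 regulators it was -0.11, -0.06 and -0.11 on knockout 1, 2 and 3, against 0.07, 0.13 and 0.08 on wildtype 1, 2 and 3. Every knockout array was thus below every wildtype array, among them the lens-rich array of each group. For the 8 late enzymes the mean deviation was 0.06, 0.01 and -0.08 in knockout retinas, against 0.003, -0.01 and 0.03 in wildtype retinas. Here knockout 1 was high and knockout 3 low. For the 5 mevalonate genes knockout 1 was at 0.11, the other two knockout arrays at -0.10 and -0.05, against 0.00 to 0.03 in wildtype retinas. For the 3 enzymes from squalene to lanosterol it was -0.01, 0.04 and -0.12 in knockout retinas, against 0.07, -0.01 and 0.04 in wildtype retinas. The enzymes thus differed more among the knockout retinas than between the groups, while the regulators differed more between the groups. This contrast was seen in the values and was not tested, and the array means are not independent of the genes named above.

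The sequence just before the transcription start was looked at for the genes whose groups did not overlap and that have a single start in RefSeq's table (build GRCm38.p6), because SREBP acts on its targets through a sterol response element next to a box for the factor NF-Y. Hmgcs1 is shown beside them as a classical target that did not separate. Each window is the 250 bases before the start, and capitals mark TCACNCCAC (reverse GTGGNGTGA) or CCAAT (reverse ATTGG) on either strand; no 2 of these matches overlap in the windows printed.
Srebf2, chr15:82147019-82147268, + strand: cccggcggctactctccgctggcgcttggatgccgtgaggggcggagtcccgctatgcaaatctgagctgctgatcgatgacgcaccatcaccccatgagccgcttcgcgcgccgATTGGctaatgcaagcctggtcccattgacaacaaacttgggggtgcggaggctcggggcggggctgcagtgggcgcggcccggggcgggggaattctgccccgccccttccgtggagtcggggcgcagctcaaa
Insig1, chr5:28071162-28071411, + strand: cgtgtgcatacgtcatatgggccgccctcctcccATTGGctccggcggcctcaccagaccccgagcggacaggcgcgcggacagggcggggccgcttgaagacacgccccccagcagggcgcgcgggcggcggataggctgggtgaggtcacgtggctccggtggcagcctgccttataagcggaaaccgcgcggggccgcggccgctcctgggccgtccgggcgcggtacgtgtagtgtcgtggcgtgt
Hsd17b7, chr1:169969206-169969455, - strand: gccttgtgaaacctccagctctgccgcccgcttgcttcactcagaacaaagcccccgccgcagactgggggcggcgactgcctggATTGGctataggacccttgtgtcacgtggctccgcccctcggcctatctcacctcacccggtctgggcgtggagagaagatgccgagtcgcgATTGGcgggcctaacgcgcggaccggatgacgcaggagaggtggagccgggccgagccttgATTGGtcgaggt
Nsdhl, chrX:72918271-72918520, + strand: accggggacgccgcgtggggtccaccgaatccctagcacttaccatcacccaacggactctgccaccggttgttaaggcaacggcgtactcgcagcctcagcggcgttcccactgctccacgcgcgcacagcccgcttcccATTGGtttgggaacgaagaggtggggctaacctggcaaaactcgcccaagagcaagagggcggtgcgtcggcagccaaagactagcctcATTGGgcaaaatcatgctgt
Ebp, chrX:8193513-8193762, - strand: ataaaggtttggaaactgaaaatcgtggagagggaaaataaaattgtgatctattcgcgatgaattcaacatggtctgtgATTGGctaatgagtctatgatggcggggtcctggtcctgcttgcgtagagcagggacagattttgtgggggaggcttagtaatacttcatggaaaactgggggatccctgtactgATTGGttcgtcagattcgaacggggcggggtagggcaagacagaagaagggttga
Hmgcs1, chr13:119690101-119690350, + strand: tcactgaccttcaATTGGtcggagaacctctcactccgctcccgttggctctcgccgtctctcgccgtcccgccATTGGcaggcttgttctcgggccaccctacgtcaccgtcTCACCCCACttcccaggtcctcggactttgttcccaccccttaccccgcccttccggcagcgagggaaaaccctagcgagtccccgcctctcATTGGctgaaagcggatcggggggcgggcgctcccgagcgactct
Hmgcs1 held the one match to the sterol response element, TCACCCCAC, starting 137 bases before the start. The 6 printed windows held between 1 and 3 NF-Y boxes each. The annotated span of Hsd17b7 reaches position 169969242, so the end of its window lies inside that span. The NF-Y box 12 bases before the start is in that part. Over the 19 members with an entry in the table, 17 (89.47%) had an NF-Y box in at least 1 window, against 39.14% of the 12146 tested genes with an entry. The sterol response element was in 1 (5.26%), against 1.23%. Genes with several starts have more windows, and counted by window the NF-Y box was in 66.67% of 27 member windows, against 34.32% of those of tested genes. The NF-Y box was present in all 6 members with an entry and without overlap between the groups (Abcg1 had no entry), and in 11 of the 13 others. A match is a string of letters, and the lack of one says only that these letters are not in this window.

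Genes around the pathway were counted in 5 lists, with 75 of 86 listed genes tested. One was called, higher in knockout (0.48% of all genes were called higher), and at an unadjusted p under 0.05 there were 12 of 75 (16.0%), near the 13.5% of all genes. Groups stood apart in 21 of the 75 genes (28.0%, against 20.3% of all genes), 11 lower and 10 higher in knockout. The called gene was Cav1, which encodes caveolin, a cholesterol-binding coat protein of caveolae. Cav1 was at 7.42, 7.41 and 7.41 in knockout retinas, against 6.84 in each of the 3 wildtype retinas, a 1.49-fold difference (log2 change 0.57, SE 0.068, adjusted p = 0.0103). The arrays of Cav1 agreed within each group more closely (SD 0.007 in knockout, 0.004 in wildtype) than those of any cholesterol gene in the same group. The call was held in 12 of 17 alternatives and lost without wildtype 1, 2 or 3 (adjusted p up to 0.0733), without both lens-rich arrays (0.0828) and with the replicate number as a block. Caveolin is abundant in endothelium. All 8 endothelial and pericyte markers were tested and none was called. Their mean ran from 8.46 to 8.53 in knockout retinas, against 8.48 to 8.54 in wildtype retinas. These markers did not agree in direction, with 5 above and 3 below 0. Pdgfrb (log2 change -0.30) and Vtn (-0.14) were lower on every knockout array (2 of 8 apart, 25.0%, against 20.3% of all genes). The part of any cell type in the values of Cav1 was not tested.

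In the list of fatty acid synthesis and SREBP1 targets, 16 genes were tested and none was called, with 10 below and 6 above 0. Fasn, fatty acid synthase, was at 8.12, 8.49 and 8.11 in knockout retinas, against 8.50, 8.51 and 8.56 in wildtype retinas (log2 change -0.28, SE 0.11, adjusted p = 0.327). The knockout array nearest to wildtype was knockout 2, the lens-rich one. Mid1ip1, a partner of acetyl-CoA carboxylase, stood at a log2 change of -0.29 (SE 0.090, adjusted p = 0.221), while Gpam, an acyltransferase of glycerolipid synthesis, had one of 0.27 (SE 0.074, adjusted p = 0.174) and Agpat2, which acts after it, one of 0.27 (adjusted p = 0.32). Genes of this list therefore had estimates of like size in both directions.

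In the isoprenoid branch, which turns farnesyl diphosphate to prenyl groups, dolichol and coenzyme Q, 10 of 13 genes were above 0 and none was called. The other 3 were below 0, where 49.1% of all genes lay. Rabggtb, a subunit of the Rab prenyltransferase, had the widest estimate (log2 change 0.43, SE 0.15, adjusted p = 0.262), followed by Coq2 (0.26), Pggt1b (0.19) and Zmpste24 (0.16). In the control of SREBP processing and sterol sensing none of 11 genes was called. Fbxw7, the ubiquitin ligase subunit that marks nuclear SREBP for breakdown, was at 8.22, 8.40 and 8.31 in knockout retinas, against 8.42, 8.63 and 8.71 in wildtype retinas. All its knockout values lay below the wildtype values (log2 change -0.28, SE 0.097, adjusted p = 0.278). Rnf139 and Ubxn4 were at 0.15 and 0.16 on the scale of log2 change, both higher on every knockout array, and Pgrmc1 was at -0.12 with overlap. In this list 4 of 11 genes were without overlap (36.4%, against 20.3% of all genes), 3 higher and 1 lower in knockout.

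Besides Cav1, none of the 22 tested genes of sterol uptake, esterification, transport and export was called, and 15 were below 0. Over all genes 49.1% were below 0. Gramd1a, which carries cholesterol from the plasma membrane to the endoplasmic reticulum, was at 8.26, 8.17 and 8.32 in knockout retinas, against 8.80, 8.70 and 8.48 in wildtype retinas (log2 change -0.41, SE 0.10, adjusted p = 0.132). Apod, an apolipoprotein, had a log2 change of 0.37 (SE 0.13) and Lrp1, a lipoprotein receptor, of -0.29 (SE 0.16). In the list of oxysterols and LXR none of 13 genes was called. Cyp46a1, the enzyme by which neurons turn cholesterol to an oxysterol, was at 7.27, 7.30 and 7.17 in knockout retinas, against 7.43, 7.34 and 7.52 in wildtype retinas (log2 change -0.18, SE 0.082, adjusted p = 0.385). Its groups lay close without overlap, as in 3 of the 13 genes of this list (23.1%, against 20.3% of all genes). Rxrg, an RXR receptor that in the retina is also a cone gene, stood at a log2 change of -0.32 (SE 0.088, adjusted p = 0.169), Rxra one of -0.21 and Cyp39a1 one of 0.26.

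**Figure D4:**
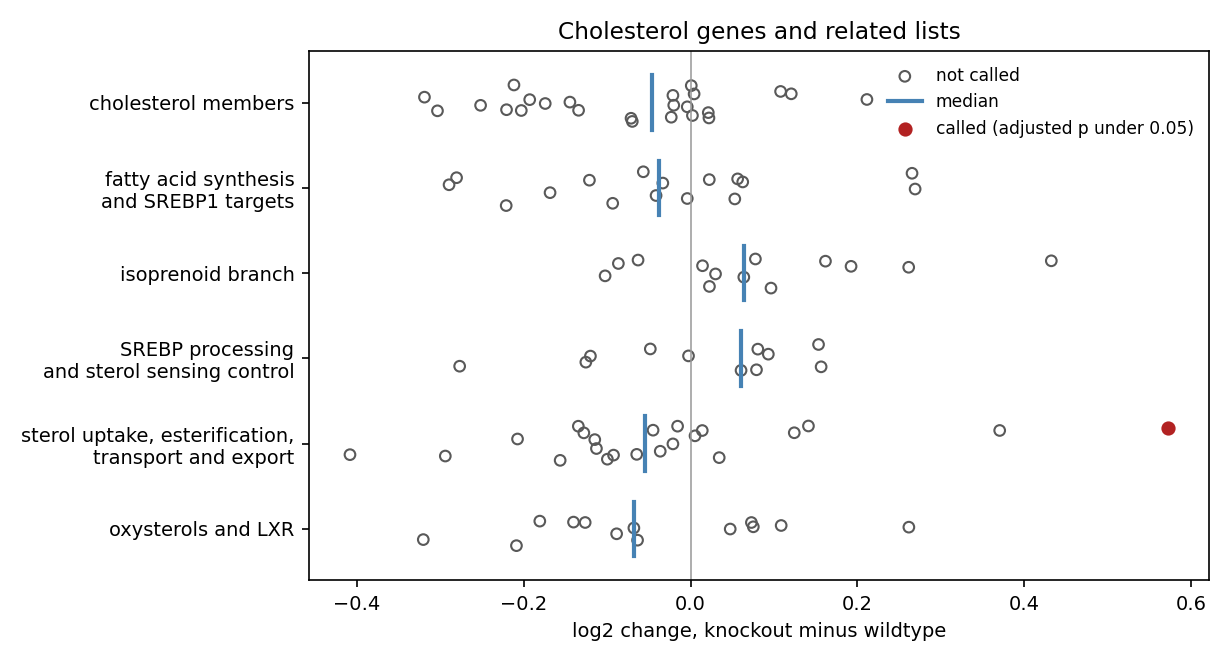
Log2 change (x axis, knockout minus wildtype) of the 24 cholesterol genes and of 75 genes in 5 related lists (rows). Each circle is a gene, the vertical bar the list's median, and the single filled circle Cav1 at 0.57; list medians run from -0.07 to 0.06.

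Cell type markers differed in part with genotype on the same arrays. The mean of 9 amacrine markers ran from 6.85 to 7.25 in knockout retinas, against 7.65 to 7.77 in wildtype retinas. Of the 9, 5 were called lower (over all genes 0.826% were called in either direction). The groups stood apart in 7 of them (77.8%, against 20.3% of all genes), all lower in knockout. The mean of 10 rod markers ran from 11.52 to 11.53 in knockout retinas, against 11.37 to 11.48 in wildtype retinas, with none called. Of these rod markers 6 were above and 4 below 0, among them Samd7 at a log2 change of 0.52 and Slc24a1 at -0.19. The mean of 6 horizontal cell markers ran from 7.13 to 7.36 in knockout retinas, against 7.39 to 7.41 in wildtype retinas. None was called, with 4 below and 2 above 0. Prox1 was at a log2 change of -0.40, Onecut1 at -0.38 and Tpm3 at 0.28. The mean of 3 astrocyte markers ran from 6.81 to 6.86 in knockout retinas, against 6.48 to 6.70 in wildtype retinas, with none called. Gfap (log2 change 0.44) and S100b (0.20) stood apart (2 of 3, 66.7%, against 20.3% of all genes), while Pdgfra (0.06) overlapped. Another 2 listed astrocyte markers were too dim to be tested. The mean of 7 ganglion cell markers ran from 9.02 to 9.16 in knockout retinas, against 9.16 to 9.22 in wildtype retinas, with none called. The groups of 2 of these 7 stood apart (28.6%, against 20.3% of all genes), in opposite directions. Nefh was lower in knockout (log2 change -0.40, adjusted p of limma 0.0968) and Sncg higher (0.28, adjusted p of limma 0.466). The mean of the 9 Muller glia markers overlapped, from 10.09 to 10.21 in knockout retinas, against 10.14 to 10.19 in wildtype retinas, but its members did not agree in direction. The groups of 6 of these 9 stood apart (66.7%, against 20.3% of all genes), 2 higher and 4 lower in knockout, and none was called. Among them Abca8a had a log2 change of 0.44 (adjusted p of limma 0.0659), Dkk3 of -0.26 and Rlbp1 of -0.20. The mean of the 9 pigment epithelium markers overlapped, from 8.68 to 9.51 in knockout retinas, against 8.96 to 9.70 in wildtype retinas. The part of these cell types in the values of the sterol genes was not tested. In whole tissue, fewer cells of a type and less RNA per cell cannot be told apart.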

How the data were processed

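Total RNA of whole retina was measured on 6 Affymetrix gene arrays, 3 of knockout and 3 of wildtype mice, each from 100 ng RNA as cDNA input, per the labels' protocols. The authors deposited 1 log2 value per probe set and array, computed by RMA according to the submitters' processing notes. Its version, software and genome build were not given in the sources used here. Quantile normalization makes arrays alike, so a change in total RNA per cell would not show.

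Of 41345 probe sets 23521 had exactly 1 symbol. Those at a log2 value of at least 5 on at least 3 arrays were kept, the brightest for a gene with several (678 genes), which left 15619 genes. The test was that of limma 3.58.1 under R 4.3.3 (lmFit, eBayes, genotype as the only term, 2-sided), adjusted by Benjamini-Hochberg over all genes. With so few arrays the precision is limited, and the median SE came to 0.0948 on the log2 scale. Nothing says whether samples of a group came from separate litters, so p-values measure the spread between these samples. In a simulation of 15619 genes on 6 arrays, values were drawn independently with the SDs shuffled across genes, so without lens-rich arrays or links between genes. There limma recovered 46 of 100 genes with a log2 change of 0.5 and 86 of 100 with one of 1, and made 8 false calls. The change of every cholesterol gene was smaller in size than 0.5 (Srebf2, the largest, at -0.32), so recovery at their sizes was not simulated.

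The members and lists were chosen with earlier results of these data known. Named genes are all members with a single-symbol probe set in order of role, Atrx, and of each related list the called genes and up to 4 members with the smallest unadjusted p. No test was made over a list. Sequences are from RefSeq (GRCm38.p6). A total of 17 alternatives were run. Figures were drawn with matplotlib 3.10.9.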

Additional observations from a re-analysis of the deposited data

How the results depend on the processing

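No cholesterol gene was called under any of the 17 alternatives, and of 408 values of single genes 374 kept their direction, 34 turning sign in 10 genes that were not called. The signs of small changes were therefore not fixed. After a second quantile normalization Cyp51 was at -0.026, Dhcr7 at -0.022, Fdps at -0.003, Lss at -0.025 and Mvk at -0.002. With centred arrays Cyp51 was at -0.001, Dhcr7 at -0.004 and Lss at -0.003, and with array weights at -0.002, -0.005 and -0.02. Without both lens-rich arrays Cyp51 was at -0.001, Dhcr7 at -0.004 and Mvk at -0.037. Leaving out each array in turn gave ranges of -0.257 to 0.008 for Abca1, -0.028 to 0.053 for Cyp51, -0.022 to 0.019 for Dhcr7, -0.086 to 0.035 for Fdft1, -0.138 to 0.111 for Fdps, -0.152 to 0.001 for Insig2, -0.072 to 0.065 for Lss, -0.067 to 0.076 for Msmo1, -0.039 to 0.065 for Mvk and -0.063 to 0.008 for Tm7sf2. The change kept its sign but moved by over 1.5 times in 6 others, with ranges of 0.13 to 0.252 for Ebp, -0.118 to -0.011 for Hmgcs1, -0.273 to -0.087 for Mvd, 0.068 to 0.161 for Pmvk, 0.076 to 0.195 for Sc5d and -0.048 to -0.007 for Scap. Over all genes 129 were called, against 74 with no filter (22180 genes tested), 209 with a floor of 6, 282 with an intensity trend and robust spread, 68 with the replicate number as a block, 36 without both lens-rich arrays and 74 with all probe sets tested together; leaving out each array gave 25 (without wildtype 2) to 141 (without knockout 2). The 1 called gene of the related lists, Cav1, became 0 with the replicate block and without both lens-rich arrays, and 0 to 1 with each array left out. The replicate numbers of the titles are not known to pair the samples. Deviations of same-numbered arrays from their group means correlated at -0.274, -0.381 and -0.058. The lens-rich arrays, knockout 2 and wildtype 1, carry different numbers and enter these correlations, so the values cannot show whether samples were paired. With the replicate block the smallest adjusted p of a cholesterol gene was 0.306. The cause of these shifts was not tested. The 3 arrays in each group limit what can be seen.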

Other observations

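Idi1, the isomerase of the mevalonate pathway, is measured by a probe set that also carries the symbol Gm13502 and so belongs to no comparison above. Its log2 values were 7.64, 7.79 and 7.62 in knockout retinas, against 7.60, 7.63 and 7.46 in wildtype retinas. Only the lowest knockout array lay within the wildtype range, and no test was run on this probe set.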
